A study of Mus musculus with 8 samples.

Results

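Integrins, laminins and the basement membrane proteins that link them were followed in SN4741 cells. The members were all genes whose symbol names an integrin α or β chain or a laminin α, β or γ chain. The 2 nidogens Nid1 and Nid2, perlecan (Hspg2), agrin (Agrn) and dystroglycan (Dag1) were added. Left out were 3 genes named as integrin binding proteins (Itgb1bp1, Itgb1bp2 and Itgb3bp). This gave 44 of the 31053 genes in the files. They were 18 integrin α chains, 9 integrin β chains, the integrin-like Itgbl1, 5 laminin α chains, 3 laminin β chains, 3 laminin γ chains, 2 nidogens, 2 proteoglycans and dystroglycan.

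SN4741 is a mouse line reported to be clonal, from embryonic substantia nigra. By its reported origin it carries a temperature-sensitive SV40 T antigen driven by the tyrosine hydroxylase promoter, in both groups. Whether each cell holds this transgene was not tested. The study found the line unstable and mostly triploid, with chromosome sets that differed between all karyotyped cells. It proposes that the cells may not be precursors of dopaminergic neurons. The labels give the genotype of every sample as WT and the cell type as neural precursor cells. Single-cell 3′ RNA-seq was made from 4 libraries of cells kept at 37 °C in medium with 10% serum and from 4 libraries of cells that were moved to 39 °C in medium with 0.5% serum for 48 hours. Temperature, serum and time in the medium changed together and cannot be told apart. The labels do not say whether the 4 libraries of a temperature came from separate cultures. The p-values of the temperature difference therefore measure the spread between these libraries, which may be technical.

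Laminins are cross-shaped trimers of an α, a β and a γ chain that polymerise into the sheet of a basement membrane, and nidogens, perlecan and agrin tie this sheet to type IV collagen and to the cell surface. Cells hold on to it through integrins, which are pairs of an α and a β chain, and through dystroglycan, which binds laminin, agrin and perlecan by its sugar chains. In the developing nervous system these contacts anchor neural precursors and guide migrating neurons and growing axons.

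The 8 libraries held 985 to 3494 kept cells and 17166686 to 29633818 unique molecular identifiers (UMIs) each, with 985 cells in replicate 1 at 39 °C. No pair of libraries shared more than 5 cell barcodes. Of the neural precursor markers, Nes was at 467 counts per 1000000 (CPM) at 37 °C and 108 CPM at 39 °C and Sox2 at 55.4 and 76.5 CPM. Msi1 had 2 UMIs at 37 °C and 10 at 39 °C (log2 fold change 2.23, adjusted p = 0.0286). Sox1, Pax6 and Fabp7 had at most 6 UMIs each over all libraries, so that of these markers only Nes and Sox2 were above 1 CPM. Of the neuron markers, Map2 went from 51.4 to 29.7 CPM and Tubb3 from 15.4 to 8.39 CPM (adjusted p = 8.53e-11 and 4.73e-08), and Dcx had 0 UMIs. Of the dopaminergic markers, En1 was at 9.72 and 8.72 CPM (adjusted p = 0.0763) and Slc18a2 had 56 and 63 UMIs, while Th, Slc6a3 and Pitx3 had at most 7 UMIs each. Of the endothelial markers, Pecam1 had 27 and 61 UMIs (log2 fold change 1.35, adjusted p = 0.00149), Tek had 54 and 34, and Cdh5 and Cldn5 had 0. G1 cells made up 20.6% to 28.7% of a library at 37 °C and 82.5% to 85.4% at 39 °C, so the temperature difference of a named member is given over all kept cells and, for those above 1 CPM, again among G1 cells. Of the markers, Nes was lower among G1 cells too (log2 fold change -1.98, adjusted p = 2.1e-14), as was Map2 (-1.04, adjusted p = 7.55e-12). Sox2 (0.55, adjusted p = 2.84e-08) and Pecam1 (2.20, adjusted p = 0.0111) were higher among G1 cells, and Msi1 did not pass there (3.50, adjusted p = 0.131). Tubb3 did not pass there and pointed upward (0.37, adjusted p = 0.0764), while En1 was lower (-0.32, adjusted p = 0.0265).

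Of the 44 members, 37 had a mean of at least 1 UMI per library and were tested. In all kept cells 13 of the 37 (35.1%) were higher at 39 °C and 14 (37.8%) were lower, at an adjusted p under 0.05 in edgeR's quasi-likelihood test with Benjamini-Hochberg adjustment over all 15810 genes tested. The background was 31.5% of all genes tested for higher and 30.5% for lower, so that the members' shares were a little above those of all genes in both directions. The median log2 fold change of the members was -0.24, against 0.02 for all genes, and its median size was 0.75, against 0.417. The 37 °C and 39 °C libraries were without overlap for 26 members (70.3%), against 56.7% of all genes. At the study's stricter thresholds (log2 fold change beyond 1.5 in either direction with an adjusted p below 0.01) Itga2 and Itga9 were higher and 3 members, Itgb6 and Itgb7 among them, were lower; this was 5.41% and 8.11% of the members, against 2.21% and 3.62% of all genes.

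Among the integrin chains the changes ran in both directions. Both proteoglycans were higher and both nidogens and dystroglycan were lower. Of the 13 integrin α chains tested, 5 were higher, 4 were lower and 4 did not pass the test, and of the 8 integrin β chains 3 were higher, 3 were lower and 2 did not pass. Of the 4 laminin α chains tested, 2 were higher and none was lower, and of the 3 β chains 1 was higher and 1 lower. Since UMIs were summed over cells, fewer cells that express a gene and less RNA per cell cannot be told apart in these values.

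The promoters of Itga2 and Itgb7 are shown because these members, one higher and one lower at 39 °C, were past the stricter thresholds both in all kept cells and in G1 cells, and each has a single start in the RefSeq table. Each sequence is the 250 bases before that start, 5′ to 3′ on the strand of the gene, on GRCm38.p6, at chr13:114932101-114932350 (minus strand) for Itga2 and chr15:102231936-102232185 (minus strand) for Itgb7. Capitals mark E-boxes (CANNTG), the site read by basic helix-loop-helix factors.
Itga2: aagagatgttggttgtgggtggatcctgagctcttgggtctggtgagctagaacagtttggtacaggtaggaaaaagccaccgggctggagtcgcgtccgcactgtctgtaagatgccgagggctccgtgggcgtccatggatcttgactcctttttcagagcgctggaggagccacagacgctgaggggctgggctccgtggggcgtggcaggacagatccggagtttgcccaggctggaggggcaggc
Itgb7: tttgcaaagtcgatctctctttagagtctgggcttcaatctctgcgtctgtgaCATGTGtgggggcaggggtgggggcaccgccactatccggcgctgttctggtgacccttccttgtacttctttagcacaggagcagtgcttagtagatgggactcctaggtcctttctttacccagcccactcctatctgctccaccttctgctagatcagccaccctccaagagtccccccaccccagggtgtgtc
The Itga2 window held no E-box and the Itgb7 window 1, while 66.2% of the 32851 promoter windows of this length in the table held at least 1. On both strands, neither window held the AP-1 motif TGANTCA, the TEAD motif GGAATG, the SP1 motif GGGCGG or the TATA motif TATAAA, which were present in 6.75%, 12.6%, 32.7% and 12.4% of all windows. Of the 44 members 29 had an entry in this table.

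**Figure D1:**
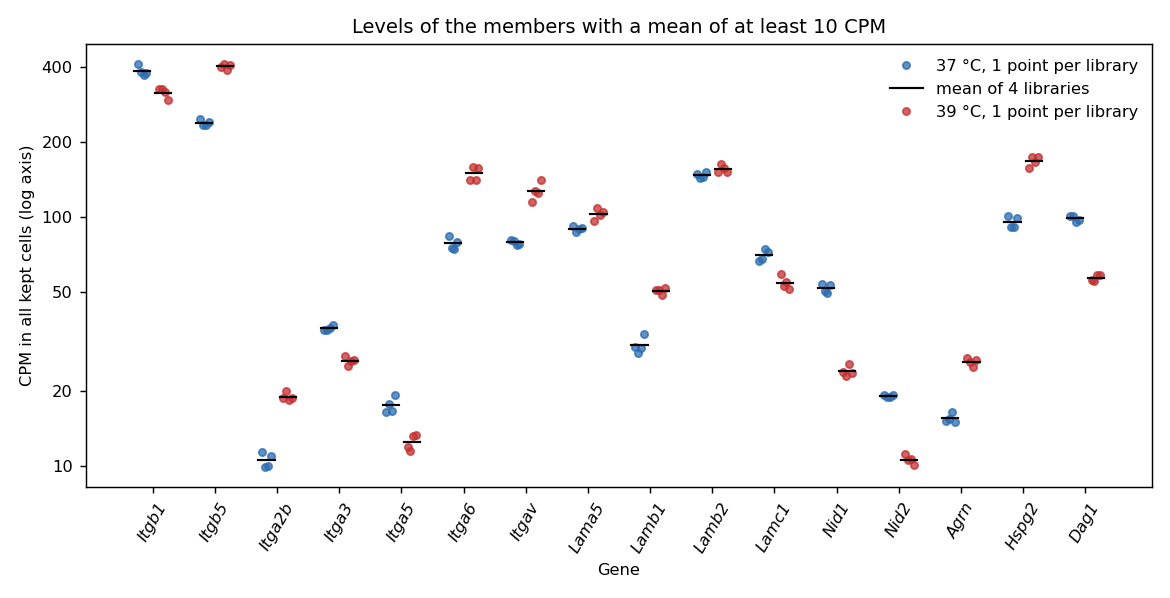
The plot of levels shows CPM in all kept cells (log axis) for the 16 members with a mean of at least 10 CPM, with 1 point per library at 37 °C (blue) and 39 °C (red) and a line at the mean of 4 libraries. The points of the 2 temperatures stand apart for every gene shown except Lamb2, whose means were 148 CPM (37 °C) and 156 CPM (39 °C).

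Among the laminins, the β1 chain rose at 39 °C and the γ1 chain fell, while the α5 and β2 chains moved little. Lamb1 (chr12:31265234-31329644, plus strand; all positions are on GRCm38) encodes the β1 chain. It was measured at 30.2, 28.4, 29.9 and 33.8 CPM in the 4 libraries at 37 °C and at 51, 50.9, 48.7 and 52.1 CPM at 39 °C. Every 39 °C library exceeded every 37 °C library, and the log2 fold change was 0.73 ± 0.0532 (SE; adjusted p = 5.27e-10; in G1 cells 0.64 ± 0.071, adjusted p = 9.49e-08). Lamc1 (chr1:153218922-153332786, minus strand) encodes γ1, the γ chain of most laminins. Its levels were 66.9, 67.9, 74.5 and 72.7 CPM at 37 °C and 59.3, 52.8, 54.8 and 51.3 CPM at 39 °C, so that the groups did not overlap in the downward direction (log2 fold change -0.37 ± 0.0526, adjusted p = 4.16e-06; in G1 cells -0.40 ± 0.0609, adjusted p = 7.84e-06).

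Lama5 (chr2:180176373-180225859, minus strand), the α5 chain, is the main α chain of many mature basement membranes. It was at 92.2, 87, 89.3 and 90.3 CPM at 37 °C and at 96.2, 109, 102 and 105 CPM at 39 °C. The groups did not overlap, but the log2 fold change was small at 0.20 ± 0.0467 (adjusted p = 0.00114), and among G1 cells it was 0.01 ± 0.0568 (adjusted p = 0.895). With an upper limit of 5000 genes per cell the difference in all kept cells did not pass (adjusted p = 0.0662), and with phases scored within each library by itself the one in G1 cells did (0.21, adjusted p = 0.00451). Lamb2 (chr9:108479736-108490530, plus strand), the β2 chain found at synapses and in the kidney filter, was at 149, 144, 145 and 152 CPM at 37 °C and at 152, 163, 157 and 152 CPM at 39 °C. The groups touched and the difference did not pass the test (log2 0.08 ± 0.0446, adjusted p = 0.13), although it passed under 5 of 21 alternatives (adjusted p = 0.0206 with a mitochondrial limit of 10% to 0.048 with no cell filter). Among G1 cells Lamb2 was lower at 39 °C, at 188 ± 8.96 CPM (SD, n = 4) against 164 ± 5.54 CPM (log2 fold change -0.20 ± 0.0515, adjusted p = 0.00319), but with the phases of each library scored alone the value was 0.03 (adjusted p = 0.648).

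The remaining laminin chains were scarce. Lamb3, a β chain of the laminin of epithelial hemidesmosomes, was at 1.6 ± 0.134 CPM and 0.858 ± 0.207 CPM (log2 fold change -0.87, adjusted p = 4.88e-04), and in G1 cells its log2 fold change was -1.07 (adjusted p = 0.00471), a call lost without replicate 3 at 37 °C (-0.80, adjusted p = 0.0518). Lama3, the α chain of the same trimer, went from 1.57 ± 0.0747 CPM to 2.28 ± 0.182 CPM (log2 fold change 0.53, adjusted p = 0.00208) and did not pass in G1 cells (0.45, adjusted p = 0.146). With the phases of each library scored alone Lama3 passed in G1 cells (0.65, adjusted p = 0.0218). With the same number of cells drawn from each library neither Lamb3 nor Lama3 passed (adjusted p = 0.135 and 0.0628). The epithelial markers Cdh1, Krt5 and Krt14 did not pass the test in all kept cells, and in G1 cells Krt14 was lower (-0.54, adjusted p = 0.0385). Their list (5 genes) summed to 4.34 to 7.17 CPM at 37 °C and 3.82 to 9.47 CPM at 39 °C, and its part in these values was not tested.

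Lama4, the α4 chain of vessel and nerve laminins, was at 4.22 ± 0.496 CPM and 4.76 ± 0.591 CPM over all kept cells (log2 0.16, adjusted p = 0.215). Among G1 cells it was lower at 39 °C, at 7.85 ± 1.91 CPM against 5.22 ± 0.806 CPM (log2 fold change -0.58, adjusted p = 0.0054), although the libraries overlapped. This call was lost without replicate 3 at 37 °C (-0.41, adjusted p = 0.0583) and with the phases of each library scored alone (-0.30, adjusted p = 0.123). Lama2, the α chain of muscle and Schwann cell laminin, had 26 UMIs at 37 °C and 8 at 39 °C, and Lamc3 had 70 and 42; neither passed the test (adjusted p = 0.088 and 0.147). Lama1, the α chain of early embryonic laminin, had 1 UMI in all and was not tested.

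As shares of the UMIs of their class, the β1 chain gained on the β2 chain. Lamb1 made up 17% ± 0.720 of the laminin β UMIs at 37 °C and 24.4% ± 0.950 at 39 °C (SD, n = 4), and Lamb2 82.1% ± 0.728 and 75.2% ± 0.969. Lama5 held 93.7% ± 0.686 and 93.5% ± 0.680 of the laminin α UMIs, and its values at 37 °C and 39 °C overlapped. The UMIs come from 3′ ends and are not scaled by length, so the shares describe the libraries, and only their change between temperatures is read.

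The linkers moved in opposite directions, with both nidogens lower and both proteoglycans higher at 39 °C. Nid1 (chr13:13437551-13512269, plus strand) encodes nidogen-1, which joins the laminin γ1 chain to type IV collagen. It was at 53.9, 50.6, 49.8 and 53.2 CPM at 37 °C and at 23.9, 23.1, 25.7 and 23.7 CPM at 39 °C. The groups stood far apart, and the log2 fold change was -1.11 in all kept cells (SE 0.0501, adjusted p = 4.52e-13) and in G1 cells (SE 0.062, adjusted p = 1.68e-12). Nid2 (chr14:19751265-19811787, plus strand), the second nidogen, was at 19.3, 18.9, 19 and 19.3 CPM at 37 °C and at 11.2, 10.6, 10.7 and 10.1 CPM at 39 °C. It too showed no overlap (log2 fold change -0.85 ± 0.0571, adjusted p = 1.39e-10), and its difference in G1 cells was -1.15 ± 0.0756 (adjusted p = 2.15e-11). Nid2 rose slightly as a share of the nidogen UMIs, from 26.9% ± 0.540 to 30.6% ± 1.21 (SD, n = 4).

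Hspg2 (chr4:137468769-137570630, plus strand) encodes perlecan, a large heparan sulfate proteoglycan that binds laminin, nidogen and growth factors. It was at 101, 91.7, 91.6 and 99.6 CPM at 37 °C and at 158, 174, 167 and 174 CPM at 39 °C. Every library at 39 °C was above every library at 37 °C (log2 fold change 0.81 ± 0.0502, adjusted p = 4.62e-11; in G1 cells 0.65 ± 0.0549, adjusted p = 1.25e-09). Agrn (chr4:156165290-156197488, minus strand) encodes agrin, the proteoglycan that organises the neuromuscular synapse. Its levels were 15.2, 15.5, 16.6 and 15 CPM at 37 °C and 27.3, 26.2, 25.1 and 26.7 CPM at 39 °C, again without overlap (log2 fold change 0.76 ± 0.0539, adjusted p = 3.44e-10; in G1 cells 0.72 ± 0.0787, adjusted p = 8.29e-08).

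Dystroglycan, the receptor for both proteoglycans and for laminin, was lower at 39 °C. Dag1 (chr9:108204634-108263958, minus strand) was at 101, 101, 95.9 and 97.2 CPM at 37 °C and at 55.9, 55.3, 58.6 and 58.7 CPM at 39 °C. The groups did not overlap, with a log2 fold change of -0.79 ± 0.0445 (adjusted p = 1.04e-11) in all kept cells and -0.82 ± 0.0532 (adjusted p = 1.53e-11) in G1 cells.

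**Figure D2:**
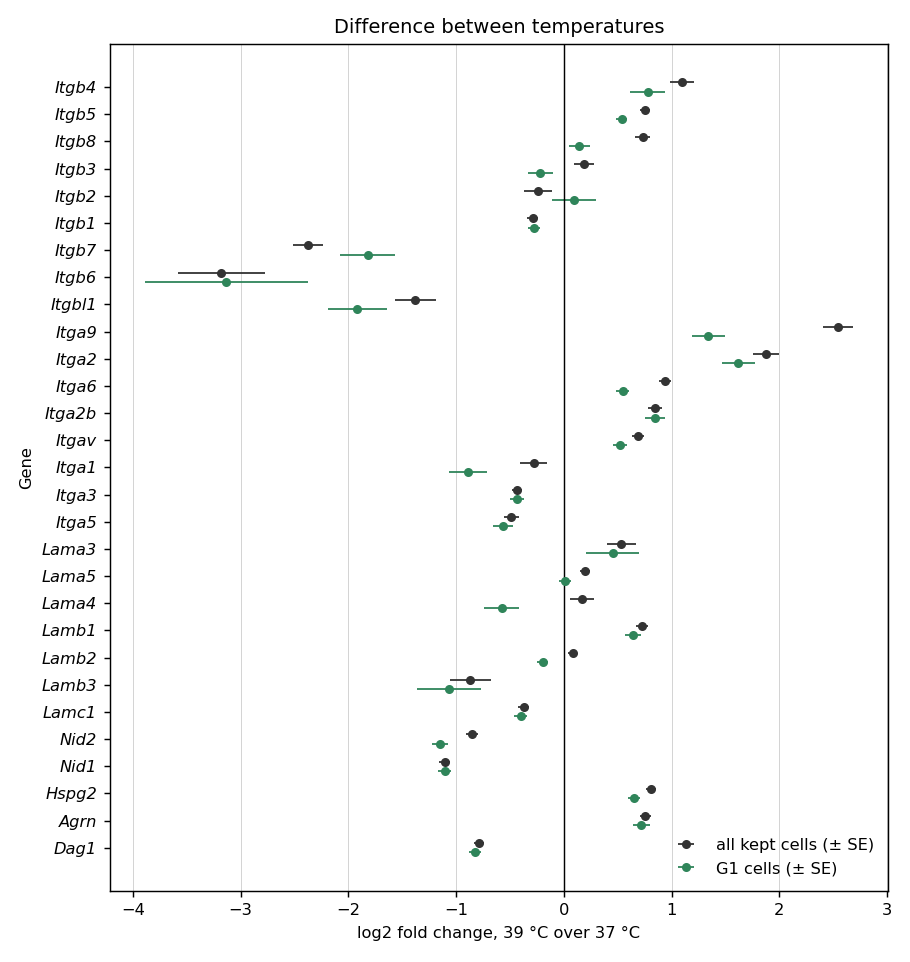
The plot of temperature differences gives the log2 fold change of 39 °C over 37 °C with its SE, in all kept cells (black) and in G1 cells (green), for Itgb6 and the members described here with a mean of at least 1 CPM. Most pairs of points lie close together. Among those further apart, Itga9 moves from 2.54 to 1.34 and Itgb8 from 0.73 to 0.14 in G1 cells. Lama4 moves from 0.16 to -0.58 there and Itga1 from -0.28 to -0.89.

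Among the integrin β chains, the β1 chain fell and the β5 chain rose, which changed their order in UMIs. Itgb1 (chr8:128685654-128733200, plus strand) encodes β1, the common partner of the laminin, collagen and fibronectin binding α chains. It was at 411, 381, 372 and 380 CPM at 37 °C and at 326, 325, 319 and 294 CPM at 39 °C. The groups did not overlap, and the log2 fold change was -0.29 ± 0.0515 (adjusted p = 6.76e-05). Itgb5 (chr16:33829665-33949338, plus strand) encodes β5, which pairs with αv to bind vitronectin. It was at 248, 235, 235 and 241 CPM at 37 °C and at 402, 411, 391 and 409 CPM at 39 °C, a rise without overlap (log2 fold change 0.75 ± 0.0459, adjusted p = 3.59e-11). As a share of the integrin β UMIs, Itgb1 went from 58.3% ± 0.757 to 41.7% ± 1.33 and Itgb5 from 36.2% ± 0.405 to 53.3% ± 1.43 (SD, n = 4), and in all 4 libraries at 39 °C Itgb5 held the larger share. In G1 cells both differences held, at -0.28 ± 0.0555 (adjusted p = 2.21e-04) for Itgb1 and 0.54 ± 0.0507 (adjusted p = 7.91e-09) for Itgb5.

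**Figure D3:**
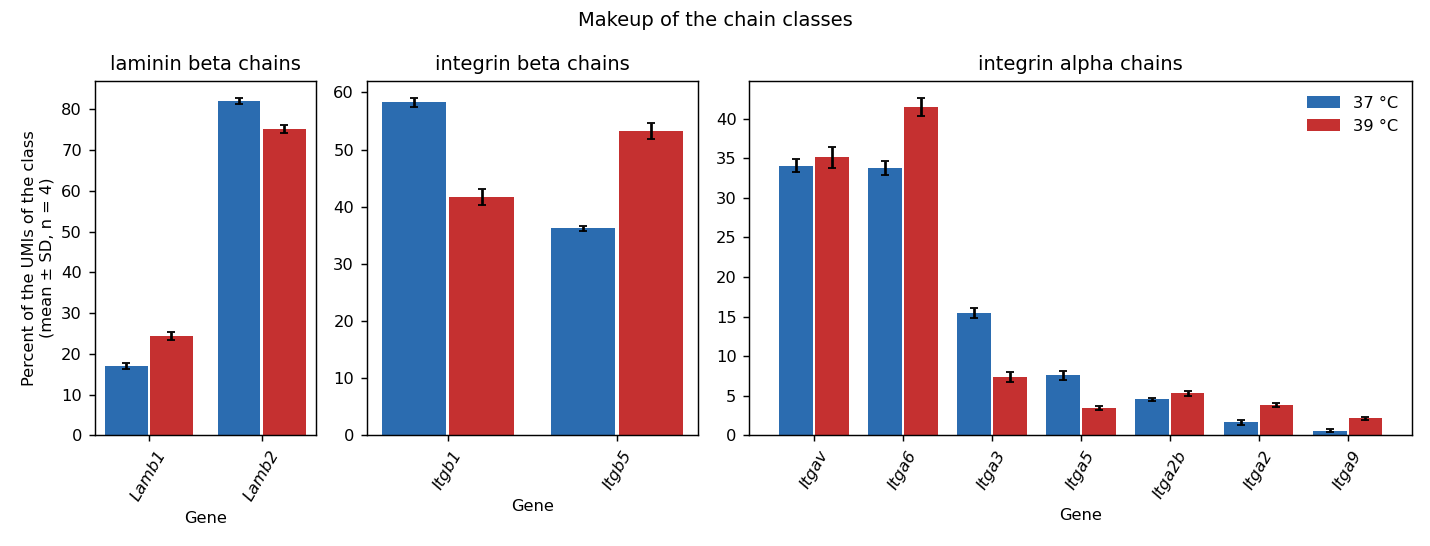
The plot of chain makeup gives the percent of the UMIs of a class that came from each chain (bars are means of 4 libraries, error bars are SD) at 37 °C (blue) and 39 °C (red). Itgb1 and Itgb5 change order between the temperatures, from 58.3% and 36.2% to 41.7% and 53.3%, and Itga3 goes from 15.5% to 7.36%.

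The less abundant β chains spread widely. Itgb7 (chr15:102215995-102231944, minus strand) encodes β7, known from gut-homing lymphocytes. It was at 8.3, 11.6, 10.7 and 12 CPM at 37 °C and at 2.44, 2.42, 1.77 and 1.66 CPM at 39 °C. The groups stood far apart, a fall of 5.2-fold (log2 fold change -2.38 ± 0.139, adjusted p = 1.92e-11). In G1 cells the libraries lay at 4.23, 6.51, 4.65 and 8.41 CPM at 37 °C and 2.42, 2.07, 1.26 and 1.03 CPM at 39 °C (log2 fold change -1.82 ± 0.253, adjusted p = 2.6e-06). Itgb6 (chr2:60598292-60722643, minus strand), the epithelial partner of αv that activates TGF-β, was at 0.72, 0.581, 0.982 and 0.807 CPM at 37 °C and at 0.113, 0.0379, 0.142 and 0.0385 CPM at 39 °C. These values rest on 87 and 8 UMIs, and the log2 fold change was -3.18 ± 0.407 (adjusted p = 1.22e-06) in all kept cells and -3.13 ± 0.754 (adjusted p = 0.00144) in G1 cells, where there were 12 and 4 UMIs.

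Itgb4, the partner of α6 in hemidesmosomes, went from 4.68 ± 0.466 CPM to 10.2 ± 1.94 CPM (log2 fold change 1.10 ± 0.114, adjusted p = 6.92e-08; in G1 cells 0.78, adjusted p = 3.23e-04). Itgb8, a partner of αv in neural precursors and glia, went from 7.02 ± 0.319 CPM to 11.7 ± 0.648 CPM in all kept cells (log2 fold change 0.73 ± 0.0715, adjusted p = 3.24e-08), but in G1 cells it was at 11.3 ± 1.44 CPM and 12.5 ± 0.434 CPM and did not pass (0.14 ± 0.0997, adjusted p = 0.256). With the phases of each library scored alone it passed there too (0.42, adjusted p = 6.8e-04). Itgbl1, an integrin-like secreted protein, was at 1.65, 1.63, 2.1 and 1.97 CPM at 37 °C and at 0.908, 0.757, 0.531 and 0.694 CPM at 39 °C, without overlap (log2 fold change -1.38 ± 0.193, adjusted p = 3.82e-06), and in G1 cells, where it was past the stricter thresholds, it fell by 1.92 on the log2 scale (adjusted p = 3.92e-06). Itgb3, the vitronectin and fibrinogen receptor chain, was at 9.29 ± 1.09 CPM and 10.5 ± 1.15 CPM, with overlapping libraries (log2 0.19, adjusted p = 0.0793; in G1 cells -0.22, adjusted p = 0.136), and in all kept cells it passed under 8 of 21 alternatives, among them without replicate 4 at 37 °C (0.24, adjusted p = 0.0376) or replicate 1 at 39 °C (0.24, adjusted p = 0.0178). In G1 cells Itgb3 passed in the downward direction without replicate 2 at 37 °C (-0.33, adjusted p = 0.0259).

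The leukocyte chain Itgb2 was at 3.98 ± 0.547 CPM and 3.43 ± 0.625 CPM, and did not pass the test (log2 -0.24, adjusted p = 0.122; in G1 cells 0.09, adjusted p = 0.75), though it did under 3 of 21 alternatives, among them without replicate 4 at 37 °C (-0.34, adjusted p = 0.0337) or replicate 1 at 39 °C (-0.35, adjusted p = 0.0207). Its leukocyte partners Itgal, Itgam, Itgax and Itgad had 7, 5, 1 and 4 UMIs over all libraries. Itgb2l had 2 UMIs, and Itga4, a partner of Itgb7, had 0. These 6 genes and Lama1 were the 7 members not tested. Itgae, another partner of Itgb7, was tested and had 35 UMIs at 37 °C and 41 at 39 °C. Of the leukocyte markers, Cd3e was at 0 in every library and Ptprc had 8 UMIs in all, while the list (6 genes) summed to 20.6 to 23.7 CPM at 37 °C and 28.3 to 37.5 CPM at 39 °C, most of it from the lysosomal protein gene Cd68 at 17.1 and 29 CPM. Cd68 was higher at 39 °C in all kept cells (log2 fold change 0.75, adjusted p = 1.89e-08) and in G1 cells (0.71, adjusted p = 2.01e-07). Lyz2 went the other way, from 4.86 to 1.92 CPM (log2 fold change -1.38, adjusted p = 2.1e-06). In G1 cells Lyz2 did not pass (-0.07, adjusted p = 0.86).

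Among the integrin α chains, the laminin receptor chain α6 and the vitronectin receptor chain αv rose, and α3 and α5 fell. Itga6 (chr2:71745616-71858416, plus strand) was at 84.4, 75.4, 74.6 and 79.4 CPM at 37 °C and at 141, 160, 141 and 158 CPM at 39 °C. The groups were far apart (log2 fold change 0.93 ± 0.0554, adjusted p = 2.35e-11), and the difference in G1 cells was smaller at 0.55 ± 0.0601 (adjusted p = 8.81e-08). Itgav (chr2:83724397-83806916, plus strand) encodes αv, which pairs with β3, β5, β6 and β8 to bind RGD ligands. It was at 81.1, 79.9, 77.2 and 78.3 CPM at 37 °C and at 115, 127, 125 and 141 CPM at 39 °C, without overlap (log2 fold change 0.68 ± 0.0548, adjusted p = 1.8e-09; in G1 cells 0.52 ± 0.0615, adjusted p = 2.63e-07).

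Itga3 (chr11:95044474-95076801, minus strand) encodes α3, the other broadly expressed laminin receptor chain. It was at 35.2, 35.4, 36 and 37 CPM at 37 °C and at 27.7, 25.2, 26.4 and 26.8 CPM at 39 °C. The groups did not overlap (log2 fold change -0.44 ± 0.0475, adjusted p = 1.28e-07), and the value in G1 cells was the same at -0.44 ± 0.0646 (adjusted p = 5.44e-06). Itga5 (chr15:103344286-103366763, minus strand), the fibronectin receptor chain, was at 16.5, 17.8, 16.6 and 19.4 CPM at 37 °C and at 11.9, 11.5, 13.2 and 13.4 CPM at 39 °C. It fell without overlap (log2 fold change -0.49 ± 0.0697, adjusted p = 4.81e-06; in G1 cells -0.56 ± 0.0943, adjusted p = 2.87e-05). As a share of the integrin α UMIs, Itga6 went from 33.7% ± 0.904 to 41.5% ± 1.17, Itga3 from 15.5% ± 0.632 to 7.36% ± 0.617 and Itga5 from 7.56% ± 0.567 to 3.46% ± 0.279 (SD, n = 4), while Itgav stayed at 34.1% ± 0.816 and 35.1% ± 1.32 with overlapping libraries.

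Itga2b (chr11:102453297-102470122, minus strand) encodes αIIb, the fibrinogen receptor chain of platelets. It was at 11.4, 9.92, 10.1 and 11 CPM at 37 °C and at 18.8, 20.1, 18.4 and 18.8 CPM at 39 °C. All libraries at 39 °C were higher (log2 fold change 0.84 ± 0.063, adjusted p = 6.78e-10), and in G1 cells the value was 0.85 ± 0.0899 (adjusted p = 4.99e-08). The platelet markers Gp9, Pf4 and Ppbp had 0 UMIs in every library, and Gp1bb had 21 UMIs at 37 °C and 12 at 39 °C.

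The largest rises among the members tested in all kept cells were those of Itga9 and Itga2. Itga9 (chr9:118606690-118901003, plus strand) encodes α9, a receptor chain for tenascin-C and osteopontin. It was at 1.89, 0.93, 1.33 and 1.16 CPM at 37 °C and at 7.09, 7.91, 8.46 and 7.63 CPM at 39 °C, which is 5.83-fold higher (log2 fold change 2.54 ± 0.139, adjusted p = 7.24e-12). In G1 cells it was at 4.23, 2.79, 3.1 and 3.11 CPM at 37 °C and 8.13, 8.54, 9.48 and 7.95 CPM at 39 °C, still without overlap but with a smaller log2 fold change of 1.34 ± 0.153 (adjusted p = 1.56e-07). Itga2 (chr13:114833081-114932100, minus strand) encodes α2, a collagen and laminin receptor chain. It was at 4.76, 3.49, 2.8 and 4.14 CPM at 37 °C and at 13.4, 14.3, 12.2 and 16 CPM at 39 °C, which is 3.67-fold higher (log2 fold change 1.88 ± 0.119, adjusted p = 5.89e-11; in G1 cells 1.62 ± 0.153, adjusted p = 8.02e-09). For both genes every library at 39 °C lay above every library at 37 °C.

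The other α chains were at or under a few CPM. Itga1, the α1 collagen receptor chain, was at 3.56 ± 0.387 CPM and 2.98 ± 0.516 CPM (log2 -0.28, adjusted p = 0.0648), and it passed under 6 of 21 alternatives, among them without replicate 3 at 37 °C (-0.37, adjusted p = 0.0226) or replicate 1 at 39 °C (-0.39, adjusted p = 0.00985). In G1 cells it was lower at 39 °C, at 6 ± 1.16 CPM against 3.25 ± 0.584 CPM (log2 fold change -0.89 ± 0.176, adjusted p = 2.02e-04). Its exons overlap those of Gm49395 on the same strand, so its count is uncertain. Itga7, the muscle laminin receptor chain, was at 1.05 ± 0.0448 CPM and 0.568 ± 0.159 CPM (log2 fold change -0.82, adjusted p = 0.00314), and Itga11 had 24 and 8 UMIs (-1.35, adjusted p = 0.034). Neither passed in G1 cells (-0.83, adjusted p = 0.0793, and -0.90, adjusted p = 0.429). Itga8, Itga10 and Itgae had 19 to 41 UMIs at a temperature and did not pass in all kept cells. Among G1 cells Itga8 was at 0.546, 1.12, 0.689 and 0.548 CPM at 37 °C and 0.134, 0.27, 0.168 and 0.094 CPM at 39 °C, from 17 and 14 UMIs (log2 fold change -2.0 ± 0.519, adjusted p = 0.00273), a call that was lost with the phases of each library scored alone (-0.94, adjusted p = 0.131).

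Over the G1 cells, 10 of the 37 members were higher at 39 °C (27.0%; 24.8% of all 14712 genes tested) and 16 were lower (43.2%; 22.4% of all genes). At the stricter thresholds Itga2 was higher (1.04% of all genes were) and 5 members, among them Itga8, Itgb6, Itgb7 and Itgbl1, were lower (1.5% of all genes were). Without replicate 1 at 37 °C 2 members were higher at these thresholds, and with filterByExpr 3 were lower. The libraries did not overlap for 25 members (67.6%), against 44.0% of all genes, and the median log2 fold change was -0.20, against 0.04 for all genes. Itga2, Itga9, Itga6, Itgav, Itga2b, Itgb4, Itgb5, Lamb1, Hspg2 and Agrn were higher at 39 °C both in all kept cells and in G1 cells.

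The share of cells with a UMI is given for part of the members. Others as abundant, such as Itga6, Itgav and Lamb2, are not listed. After thinning every kept cell of at least 5000 UMIs to 5000, which left out 668 cells at 37 °C and 1668 at 39 °C, Itgb5 was seen in 67.4% ± 2.26 of cells at 37 °C and 81.6% ± 0.867 at 39 °C (SD, n = 4; 87.9% and 89.7% unthinned). Itgb1 was seen in 80.8% ± 1.61 and 75.5% ± 1.95 of cells (93.7% and 86% unthinned), Hspg2 in 36% ± 2.48 and 54.5% ± 2 (63.4% and 72.7%), and Dag1 in 37.7% ± 0.717 and 24% ± 0.831 (64.8% and 42.1%). Nid1 was seen in 19.8% ± 1 and 9.45% ± 0.711 of cells (40.8% and 16.8% unthinned). Of the genes past the stricter thresholds, Itga9 was seen in 0.562% ± 0.0964 and 3.23% ± 0.169 of cells (1.61% and 7.09%), Itga2 in 1.78% ± 0.656 and 6.09% ± 0.422 (4.33% and 11.3%), and Itgb7 in 4.65% ± 1.15 and 0.936% ± 0.328 (12.4% and 2.22%). Itgb6 was seen in 0.321% ± 0.135 and 0.0205% ± 0.0237 of cells (1.01% and 0.106% unthinned). For Lama5 the 2 shares ran in opposite directions. It was seen in 33.3% ± 0.926 and 37.5% ± 1.83 of thinned cells, a rise like that of its sums, but in 60.1% and 55.7% of unthinned ones. Median UMIs per kept cell were 9839 to 15413 in the libraries at 37 °C and 6676 to 16665 in those at 39 °C. The part of depth in this was not tested. The cultures hold no cell type that should lack these genes, so the share that free RNA gives was not measured.

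**Figure D4:**
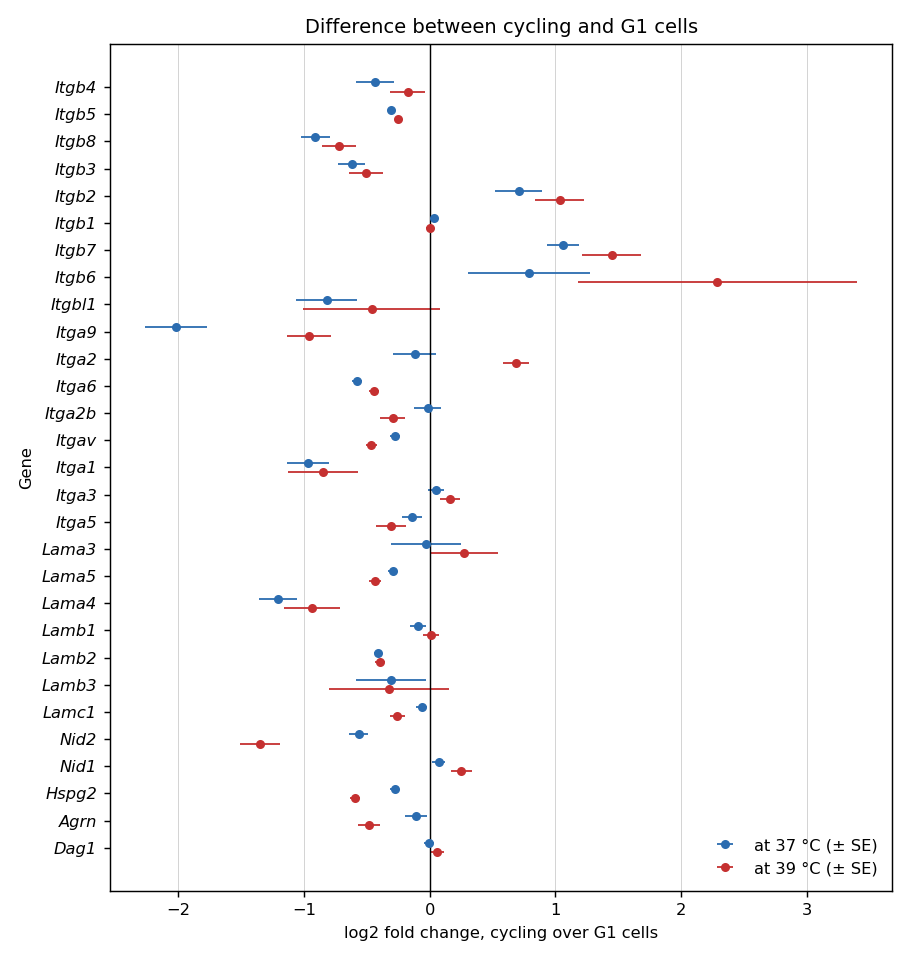
The plot of cycle differences gives the log2 fold change of cycling (S or G2M) over G1 cells with its SE at 37 °C (blue) and 39 °C (red), for Itgb6 and the members described here with a mean of at least 1 CPM. Most points lie left of 0, Itgb2 and Itgb7 lie right of it at both temperatures, and Itga2 lies at -0.12 at 37 °C and 0.69 at 39 °C.

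Within a library, most members that differed between cycling and G1 cells were lower in cycling cells. The p-values of this comparison rest on differences within libraries and on a spread that the test shares across genes. The smallest of them therefore do not measure how far a single gene varied between libraries. At 37 °C 15 of 37 members (40.5%) were lower in cycling cells and 2 (5.41%) were higher, while 18.4% and 25.0% of all 14745 genes tested were. At 39 °C 16 members (43.2%) were lower and 5 (13.5%) higher, against 21.1% and 19.2% of all genes. They included Itga2, Itgb2, Itgb7 and Nid1, and the count was 3 without replicate 3 at 39 °C, where Nid1 did not pass (adjusted p = 0.111). The split of all genes that passed depended on the scaling, with 57.58% of them higher in cycling cells at 37 °C under TMM factors and 37.66% under upper quartile factors, and 47.69% at 39 °C under TMM and 56.75% with library totals alone. The members Hspg2, Itga1, Itga6, Itga9, Itgav, Itgb3, Itgb5, Itgb8, Lama4, Lama5, Lamb2 and Nid2 were lower in cycling cells at both temperatures. Itgb2 and Itgb7 were higher at both. At 39 °C Itga1 did not pass without replicate 4 (adjusted p = 0.111) and Itga9 did not with G2M cells alone as the cycling cells (adjusted p = 0.0821).

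Of the laminin chains, Lama4 was at 7.82 ± 1.88 CPM in G1 cells and 3.35 ± 0.335 CPM in cycling cells at 37 °C (log2 fold change -1.21 ± 0.149, adjusted p = 6.38e-15), and lower in cycling cells in 4 of 4 libraries at each temperature. Lamb2 was at 187 ± 8.59 CPM and 141 ± 3.77 CPM at 37 °C (log2 fold change -0.41 ± 0.0323, adjusted p = 1.18e-35) and at 163 ± 5.9 CPM and 124 ± 2.9 CPM at 39 °C (-0.40 ± 0.0397, adjusted p = 2.49e-22). The receptor chain Itga6 was at 108 ± 8.08 CPM and 72.3 ± 3.31 CPM at 37 °C (log2 fold change -0.58 ± 0.0399, adjusted p = 3.38e-46) and at 157 ± 10.1 CPM and 115 ± 17.7 CPM at 39 °C (-0.44 ± 0.0411, adjusted p = 1.27e-25). Going the other way, Itgb7 was at 5.93 ± 1.91 CPM in G1 cells and 12.2 ± 1.53 CPM in cycling cells at 37 °C (log2 fold change 1.06 ± 0.127, adjusted p = 6.3e-16) and at 1.69 ± 0.651 CPM and 4.23 ± 0.967 CPM at 39 °C (1.45 ± 0.234, adjusted p = 5.11e-09). Itgb2 was 0.71 ± 0.191 higher on the log2 scale in cycling cells at 37 °C (adjusted p = 7.47e-04) and 1.03 ± 0.197 higher at 39 °C (adjusted p = 9.1e-07).

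For 7 members the temperature effect itself differed between cycling and G1 cells by the test of that difference, 3 in the positive direction (8.11%; 5.13% of all genes) and 4 in the negative (10.8%; 11.1% of all genes). Without replicate 4 at 39 °C the counts were 1 and 2, and without replicate 1 at 37 °C 2 were negative. The direction split of all genes that passed this test turned with the scaling, from 31.57% positive under TMM factors to 73.31% with library totals alone, which moved the median of all genes from -0.057 to 0.062. Itga2, the collagen receptor chain, was at 4.13 ± 0.83 CPM in G1 cells and 3.81 ± 1.03 CPM in cycling cells at 37 °C, and at 12.9 ± 1.7 CPM and 20.9 ± 1.89 CPM at 39 °C. It was higher in cycling cells in 2 of 4 libraries at 37 °C and 4 of 4 at 39 °C, and the difference of the effects was 0.81 ± 0.201 on the log2 scale (adjusted p = 8.38e-04). Hspg2 was at 114 ± 6.54 CPM in G1 cells and 93.6 ± 4.92 CPM in cycling cells at 37 °C, and at 178 ± 8.34 CPM and 119 ± 9.09 CPM at 39 °C (difference of the effects -0.31 ± 0.0554, adjusted p = 5.24e-07). These 2 members passed under every alternative that was run.

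Nid2 was at 26.2 ± 1.08 CPM in G1 cells and 17.7 ± 0.47 CPM in cycling cells at 37 °C, and at 11.8 ± 0.417 CPM and 4.67 ± 2.06 CPM at 39 °C, with a difference of the effects of -0.79 ± 0.185 (adjusted p = 3.36e-04). Itga9 was at 3.3 ± 0.641 CPM in G1 cells and 0.801 ± 0.291 CPM in cycling cells at 37 °C, and at 8.48 ± 0.674 CPM and 4.1 ± 2.16 CPM at 39 °C (difference of the effects 1.06 ± 0.311, adjusted p = 0.00671). Without replicate 4 at 39 °C the Itga9 value was 0.68 (adjusted p = 0.218), and with G2M cells alone as the cycling cells that of Nid2 was -0.51 (adjusted p = 0.336). Agrn (-0.37 ± 0.124, adjusted p = 0.0201), Itgav (-0.19 ± 0.0605, adjusted p = 0.014) and Itga8 (3.65 ± 1.21, adjusted p = 0.0201) passed too. Agrn and Itgav lost the call under each other scaling (-0.25, adjusted p = 0.171, and -0.07, adjusted p = 0.502, with library totals alone). They also lost it without replicate 1 at 37 °C or replicate 4 at 39 °C (adjusted p = 0.0634 and 0.169 for Agrn, 0.076 and 0.134 for Itgav), and Agrn without replicate 4 at 37 °C (adjusted p = 0.0518). Itga8 rests on 9 UMIs in cycling cells at 37 °C and 5 at 39 °C, and its call was lost without replicate 2 at 37 °C (adjusted p = 0.0876) or without replicates 2, 3 or 4 at 39 °C (adjusted p = 0.0917, 0.121 and 0.0526). With G2M cells alone as the cycling cells its value was -1.26.

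Among the cytoplasmic partners of integrins, 4 of 16 adhesion adaptors tested were higher at 39 °C, 9 were lower and 3 did not pass, with a median log2 fold change of -0.41 against 0.02 for all genes. Beside this and the following lists stand the 31.5% of all genes that were higher and the 30.5% that were lower. In G1 cells 4 of the 16 adaptors were higher and 8 lower, where 24.8% and 22.4% of all genes were. Vcl, encoding vinculin, which links talin to actin, went from 257 ± 4.42 CPM to 114 ± 5.81 CPM (log2 fold change -1.18, adjusted p = 9.49e-14), and Zyx, encoding the stress fibre protein zyxin, from 80 ± 3.41 CPM to 45.4 ± 1.46 CPM (-0.82, adjusted p = 1.34e-11). Ptk2, the focal adhesion kinase gene, went from 107 ± 4.06 CPM to 191 ± 6.05 CPM (0.84, adjusted p = 7.42e-12), and Parvb, encoding β-parvin, from 45 ± 3.37 CPM to 94.5 ± 3.34 CPM (1.07, adjusted p = 1.76e-12). Of 11 genes listed as integrin switches or membrane neighbours, 3 were higher, 6 lower and 2 did not pass (median -0.23). In G1 cells 2 of 11 were higher and 6 lower. Apbb1ip, the RIAM gene, which brings talin to integrins, was lower (-1.28), as was the small GTPase gene Rap1a (-0.39). The tetraspanin gene Cd81 was higher (0.50). Itgb3bp, listed for its name, was lower too (-0.91, and -0.49 in G1 cells), and a part in switching integrins was not tested.

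Around dystroglycan, 6 of 11 genes of the dystrophin complex were higher, 3 were lower and 2 did not pass (median 0.20), whereas in G1 cells 2 of 10 were higher and 2 lower. Utrn, encoding utrophin, went from 180 ± 10.4 CPM to 271 ± 7.09 CPM (log2 fold change 0.59, adjusted p = 4.05e-09) and Dtnb, a dystrobrevin gene, was higher by 0.33, whereas the sarcoglycan gene Sgcb was lower (-0.64). Of the 13 genes for enzymes that build the sugar chain of dystroglycan, 6 were higher, 4 lower and 3 did not pass (median -0.08), among them B3galnt2 (0.84), Tmem5 (0.63), Pomt2 (0.37) and Pomgnt1 (-0.24). In G1 cells 5 of 12 were higher and 3 lower, and Pomgnt1 did not pass there (-0.16, adjusted p = 0.111).

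Of the type IV collagens and their linkers, 1 of 9 tested was higher, 4 were lower and 4 did not pass (median -0.46), and in G1 cells 1 of 9 was higher and 6 were lower. Col4a1 and Col4a2, the 2 common type IV collagen chains, were at 152 ± 2.91 CPM and 76.7 ± 4.53 CPM at 37 °C and at 98.3 ± 3.66 CPM and 48.2 ± 2.47 CPM at 39 °C (log2 fold changes -0.63 and -0.67, adjusted p = 2.88e-10 and 1.28e-09). Pxdn, encoding the peroxidase that crosslinks them, was lower too (-0.73), and Col18a1, encoding a collagen that carries heparan sulfate, was higher, at 107 ± 5.84 CPM and 237 ± 5.02 CPM (1.14, adjusted p = 1.73e-13). Of 10 other integrin ligands 4 were higher, 3 were lower and 3 did not pass, with a median of -0.00, and in G1 cells 2 of 10 were higher and 3 lower. Spp1, the osteopontin gene, went from 194 ± 20.4 CPM to 459 ± 35.8 CPM (1.24, adjusted p = 9.56e-12) and the netrin gene Ntn1 was higher (0.46), while Fbn1 for fibrillin-1 (-1.08) and Thbs1 for thrombospondin-1 (-0.998) were lower.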

How the data were processed

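Single-cell libraries were made with the Chromium Single Cell 3′ V3 kit from 8 samples, and the authors deposited UMI counts per gene and cell, not normalized. The submitters' processing notes name Cell Ranger 3.0.1 and the build mm10. The deposited counts of 19125 cells were filtered by the limits of the study (at most 15% mitochondrial UMIs, 200 to 6000 genes), which kept 18351 cells, 8550 at 37 °C and 9801 at 39 °C. No doublet caller was run, so doublets were limited only by the upper limit on genes. Groups came from the sample titles. Within a temperature no 2 libraries had counts that agreed within sampling noise (ratio of chi-square to its degrees of freedom between 2.853 and 21.421).

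UMIs were summed per library, genes averaging 1 count per library or more entered the fit, and edgeR's quasi-likelihood test (version 4.0.16 in R 4.3.3) used TMM factors and temperature as the only term, with Benjamini-Hochberg adjustment over all genes tested. CPM are counts per 1000000 scaled by TMM factors, and SE is the log2 fold change divided by the root of F. Cell cycle phases were called with Seurat 5.3.0. Cycling and G1 sums (16 in all) were fitted with the library as a block. The fits were also run on simulated counts. These lacked the broad temperature and phase differences of the real libraries, so that run does not vouch for the calls given here. The members and gene lists were chosen with earlier results of these data known, so no set test was run.

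Members with a mean of at least 10 CPM are given in every library, those of 1 to 10 CPM by group means, and rarer ones by counts; members past the stricter thresholds that are named here are also given in every library. From each pathway list up to 4 genes of at least 10 CPM with the smallest adjusted p are named. Gene positions are from GENCODE M21 and promoters from RefSeq GRCm38.p6. Itga9 and Itgb6 are shown without promoter sequence. Some genes are counted but not reported by name here. Alternatives were other scaling factors, filters on counts and cells, phase calls, DESeq2 1.42.0, a replicate block, thinning to equal cells or totals, and leaving out each library.

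Replicate numbers are shared by the temperatures but were not taken to pair the libraries, since the deviations of same-numbered libraries correlated at -0.121, -0.117, -0.0946 and 0.291 over 8358 genes.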

Additional observations from a re-analysis of the deposited data

Results flagged for a closer look

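Of 60 groups of 4 libraries that were checked, 2 held a library that stood apart from the others by the gap to its nearest neighbour over the whole range (Dixon's test), and chance gives about 1 in 20 such groups. Itga1 was at 2.98 CPM in replicate 3 at 37 °C, the lowest of the 4. Itgb3 was at 8.79 CPM in replicate 1 at 39 °C, the lowest of the 4 and the library with the fewest cells.

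The temperature effect differed between cycling and G1 cells for 7 members by the test of the difference itself. On the log2 scale the cycling effect minus the G1 effect was 0.81 for Itga2, 3.65 for Itga8, 1.06 for Itga9, -0.19 for Itgav, -0.79 for Nid2, -0.37 for Agrn and -0.31 for Hspg2. Of these, Itgav, Agrn, Itga8, Itga9 and Nid2 lost the call under 6, 8, 6, 2 and 1 of the alternatives (for Itga8 with a turn of direction under 1 of them), and Itga2 and Hspg2 under none.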

How the results depend on the processing

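Over the counts of members that passed, 227 of the values under other settings stayed within 1.5 times the reported one and 17 did not; for single members 1819 values kept direction and call, 45 lost the call, 27 gained it and 15 turned. Other scalings, filters on counts, DESeq2, cell filters and thinning gave no such change in the counts for all kept cells. Causes were not tested, except where a setting uses fewer cells or genes by construction.

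Leaving out 1 library gave 13 to 14 members higher and 13 to 16 lower in all kept cells, and 10 higher and 15 to 17 lower in G1 cells. At the stricter thresholds it gave 2 higher and 3 lower in all kept cells, and in G1 cells 1 to 2 higher (2 without replicate 1 at 37 °C) and 4 to 5 lower. For cycling against G1 cells it gave 2 higher and 13 to 15 lower at 37 °C, and 3 to 5 higher (3 without replicate 3 at 39 °C) and 14 to 16 lower at 39 °C. For the difference of the temperature effect it gave 1 to 4 higher (1 without replicate 4 at 39 °C) and 2 to 4 lower (2 without replicate 1 at 37 °C or replicate 4 at 39 °C).

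In G1 cells at the stricter thresholds, 3 members were lower with filterByExpr, and 2 were higher with phases scored per library and with a mitochondrial limit of 10%. With G2M cells alone as the cycling cells 3 members were higher in cycling cells at 39 °C. For the difference of the temperature effect, 5, 6 and 6 members were higher with RLE factors, upper quartile factors and library totals, 2 were lower with each of these and with filterByExpr, and 7 were lower with the updated phase lists.

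The Lama5 difference in G1 cells lay near 0 and turned to -0.01 with RLE factors (-0.0114), DESeq2 (-0.0115), filterByExpr (-0.00597) and library totals (-0.00563), to -0.02 with upper quartile factors (-0.0151), and ran from -0.0219 to 0.0445 when each library was left out (below 0 without replicate 3 at 37 °C or replicates 2 or 4 at 39 °C). Itgb2 in G1 cells turned to -0.00137 with a mitochondrial limit of 10% and ran from -0.019 (without replicate 3 at 37 °C) to 0.278 when each library was left out. With phases scored per library, Lamb2 and Itgb3 in G1 cells turned to 0.0302 and 0.0722. Itga2 in cycling against G1 cells at 37 °C ran from -0.225 to 0.0764 (without replicate 3 at 37 °C) when each library was left out. With G2M cells alone, Itga8 turned to -3.8 in cycling against G1 cells at 39 °C and to -1.26 in the difference of the temperature effect.

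A fit with the replicate number as a block gave 13 members higher and 15 lower in all kept cells and 10 and 16 in G1 cells, with the stricter counts at 2 and 3 and at 1 and 5. The numbers did not pair the libraries, and only replicate 4 at 37 °C correlated best with its own number.

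Depth limits the members under 1 CPM, which rest on 8 to 117 UMIs per temperature.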
